A study of Rattus norvegicus with 9 samples.

Results

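This account covers 39 genes of synaptic vesicle release and recycling in the rat hippocampus. They were chosen by symbol from a list of 39 symbols that was drawn up with earlier results of these data known, though the rule itself uses no measured value, and all 39 were found among the 18733 genes in the deposited count tables. The study compared 3 groups of 3 male Rattus norvegicus, with 1 hippocampal poly(A)-selected RNA-seq library per sample. The control rats were kept on regular feeding. The PSCI rats (post-stroke cognitive impairment) had a middle cerebral artery occlusion (MCAO), a model of ischaemic stroke, and then 2 weeks of regular feeding. The taVNS rats had the same occlusion and then 14 days of transcutaneous auricular vagus nerve stimulation, in which a branch of the vagus nerve is stimulated through the skin of the ear. Rats of both stroke groups had been admitted to the experiment for low scores in a Y-maze and in an object recognition test, and were then allotted to PSCI or taVNS at random. A sham operation of the controls, the hemisphere taken, the strain and the age are not given in the labels, and the extraction text speaks of mice where the organism label says rat. The replicates carry a number only, so the p-values measure the spread between these libraries.

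A nerve terminal stores transmitter in vesicles that are filled, docked at the active zone, primed, fused when calcium enters, and taken back up by endocytosis. Fusion is driven by the SNARE proteins on vesicle and plasma membrane, synaptotagmins sense the calcium, complexins clamp and then assist the SNARE complex, and Rab3 with the RIM and Munc13 proteins tethers and primes the vesicle. In the hippocampus this machinery sits in the terminals of the excitatory principal cells, of local interneurons and of fibres that enter from other regions, while the mRNA measured here lies mainly in cell bodies.

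Sequence upstream of the start was printed for 3 genes: Cplx1 and Rab3a, because they had the smallest p-values of the 39 in PSCI against control, and Syn1, a vesicle gene whose level differed little between the groups. These are the 250 bases before the annotated gene start in RefSeq on the GRCr8 rat assembly, 5′ to 3′ on the gene's strand. The counts were made on another assembly, mRatBN7.2, so these positions serve only to place the sequence. Capitals mark TGACG, the core of the cAMP response element bound by CREB-family factors, and GGGCGG, the GC box bound by Sp-family factors, each on either strand, where the complement reads CGTCA and CCGCCC. The Cplx1 window is chr14:1328823-1329072 on the plus strand, the Rab3a window is chr16:18722274-18722523 on the minus strand, and the Syn1 window is chrX:3725495-3725744 on the plus strand.
Cplx1: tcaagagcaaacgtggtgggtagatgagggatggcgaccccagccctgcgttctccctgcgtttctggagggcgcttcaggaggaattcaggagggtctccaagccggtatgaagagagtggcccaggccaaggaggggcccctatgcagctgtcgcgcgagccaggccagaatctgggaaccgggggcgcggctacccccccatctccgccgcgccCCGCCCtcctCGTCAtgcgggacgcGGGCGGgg
Rab3a: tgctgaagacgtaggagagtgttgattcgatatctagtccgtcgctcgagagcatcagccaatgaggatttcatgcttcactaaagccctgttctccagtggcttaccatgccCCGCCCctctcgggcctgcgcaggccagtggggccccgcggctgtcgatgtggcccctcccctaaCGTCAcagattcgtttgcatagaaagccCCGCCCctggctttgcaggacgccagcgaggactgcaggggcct
Syn1: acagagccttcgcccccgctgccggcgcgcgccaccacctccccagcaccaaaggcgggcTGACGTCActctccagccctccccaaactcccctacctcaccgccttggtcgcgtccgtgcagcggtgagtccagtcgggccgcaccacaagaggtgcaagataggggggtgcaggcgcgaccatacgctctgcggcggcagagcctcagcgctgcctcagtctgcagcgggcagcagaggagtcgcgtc
Cplx1 had a TGACG match beginning 23 bases before the start, between GGGCGG matches at 33 and 8 bases. Rab3a had its TGACG match at 72 bases and GGGCGG matches at 137 and 44 bases. Syn1 had overlapping TGACG matches at 190 and 187 bases, which together spell the full palindrome TGACGTCA, and no GGGCGG. An upstream window was matched by symbol for 32 of the 39 genes. TGACG was present in 11 of the 32 (34.4%) and in 18.2% of all 33469 windows of this length, GGGCGG in 21 of 32 (65.6%) and in 30.5% of all windows, and TGACGTCA in 3 of 32 (9.38%; Sh3gl2, Syn1 and Vamp1) and in 1.59% of all windows. Syt4, described below, also had a TGACG match but no GGGCGG match. No window was matched for Rims2, also described below. The 33469 windows were not matched to the 32 genes in expression, gene class or base composition. The shares therefore do not show that a motif is enriched in vesicle genes. A match describes letters in a window and says nothing of binding.

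The 9 libraries held 13747389 to 15415694 counts each. Values below are in CPM, counts scaled to the library total with TMM factors, which correct for differences in composition between libraries. Scaled to the library total alone, without TMM factors, 3 counts corresponded to 0.195 to 0.218 CPM. All 39 genes passed the filter on low counts, which left 14840 genes to test. Cplx3 had between 9 and 88 counts per library and Sv2c between 26 and 72, and every other gene of the 39 had at least 147 in each library. Doc2a was the only one whose deposited counts were not whole numbers, which occurs when a counter splits reads between genes, so its values are uncertain. Marker genes of neurons were abundant in all 9 libraries, with 19 general neuron markers summing to 9557 to 13220 CPM. PSCI replicate 2 and taVNS replicate 3 stood apart from the rest: their 11 meningeal and fibroblast markers summed to 447 and 484 CPM against 66.0 to 105 CPM in the other 7 libraries. In PSCI replicate 2, 10 oligodendrocyte markers summed to 5126 CPM against 14331 and 14149 CPM in the other PSCI libraries. Its 9 tested markers of hippocampal principal cells summed to 692 CPM, against 927 to 1517 CPM in all other libraries. PSCI replicate 2 was the lowest of the 9 libraries for 20 of the 39 vesicle genes and the highest for 5 (Doc2a, Cplx3, Rab3b, Unc13b and Sv2b). The counts of called vesicle genes and of called genes in the other lists are therefore also given without these 2 libraries.

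**Figure D1:**
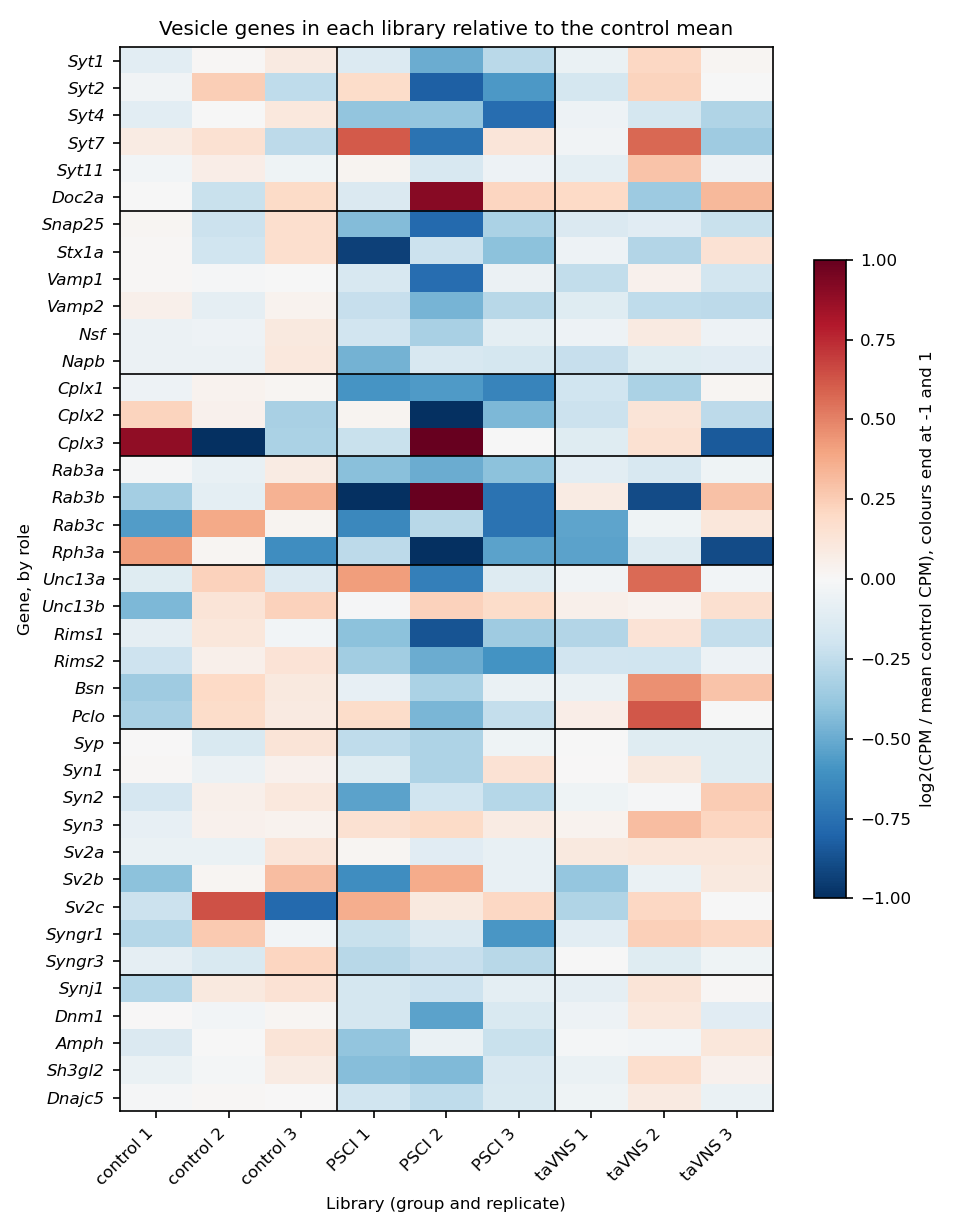
Heat map of the 39 vesicle genes (rows, ordered by role) in the 9 libraries (columns); colour is log2 of the CPM over the control mean of that gene, limited to 1 in either direction. The PSCI columns are mostly below the control mean, PSCI replicate 2 most widely, with Rab3b, Cplx3 and Doc2a above it in that library, and the taVNS columns lie on both sides.

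In PSCI against control, 4 of the 39 vesicle genes fell and none rose: Cplx1, Rab3a, Rims2 and Syt4. Each of them was between 1.36-fold and 1.52-fold lower in the PSCI hippocampus. A gene was called where edgeR's quasi-likelihood test gave a p under 0.05 after Benjamini-Hochberg adjustment over all 14840 genes, whatever its fold. The 4 genes are 10.3% of the 39, where 9.85% of all genes tested were called in either direction, 7.71% higher and 2.14% lower. Thus the share called in either direction was near that of all genes, and the share called lower was above it. Fitted log2 differences were below 0 for 32 of the 39 genes (50% of all genes tested), with a median of -0.26 and a range of -0.61 to 0.71. Relative to general neuron markers 16 of the 39 were below 0 and the median was 0.04. On that scale 2022 of all 14840 genes were below 0 and their median was 0.30. For 17 of the 39 (43.6%) all 3 PSCI libraries lay below all 3 control libraries in CPM, which was so for 11.3% of all genes tested. At an unadjusted p under 0.05, 14 of the 39 (35.9%) passed, all of them lower in PSCI. Of all genes, 25.3% passed in either direction and 9.11% were lower. Without PSCI replicate 2 and taVNS replicate 3 the number was again 14 of the 39, all lower. In that fit 3534 of all 14840 genes passed in either direction, 1564 of them lower. In whole tissue, fewer cells of a type and less RNA per cell cannot be told apart.

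Complexins bind the assembled SNARE complex, and Cplx1 is a form that acts in fast synchronous release. Cplx1 (gene 64832) stood at 421, 446 and 441 CPM in the control libraries, 290.2, 295 and 275 CPM in PSCI and 379.6, 349 and 442 CPM in taVNS. The 3 PSCI values were close together and below every control and taVNS value, whereas control and taVNS overlapped. Its mean fell from 436 ± 13.4 CPM (SD, n = 3) to 287 ± 10.4 CPM (SD, n = 3), a log2 difference of -0.60 ± 0.103 (SE; 95% interval -0.84 to -0.37; edgeR's quasi-likelihood test, adjusted p = 0.00824). Cplx2, the form that principal cells express most, stood at 1966, 1736 and 1343 CPM in control, 1712, 749 and 1232 CPM in PSCI and 1449.8, 1835 and 1401 CPM in taVNS. The groups overlapped, with PSCI replicate 2 far below the other 8 libraries, and Cplx2 was not called (log2 difference -0.45 ± 0.275, edgeR adjusted p = 0.354). Cplx3, a complexin known best from ribbon synapses of the retina, was near the limit of detection at 3.38, 0.637 and 1.47 CPM in control, 1.57, 5.61 and 1.83 CPM in PSCI and 1.68, 2.03 and 1.02 CPM in taVNS. Only PSCI replicate 2 was above 4 CPM, and the fitted difference of 0.71 ± 0.647 (edgeR adjusted p = 0.547) was -0.11 without that library.

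Rab3 GTPases sit on vesicles in their GTP-bound form and couple them to RIM at the active zone. Rab3a (gene 25531), the main neuronal form, stood at 445, 426 and 475 CPM in control, 335, 318 and 338 CPM in PSCI and 416, 402 and 436 CPM in taVNS. All 3 PSCI libraries were below the other 6. The mean fell from 449 ± 24.95 to 330.5 ± 10.7 CPM (SD, n = 3 each), a log2 difference of -0.44 ± 0.0856 (SE; edgeR's quasi-likelihood test, adjusted p = 0.01401). Its relatives were much less abundant. Rab3b stood at 26.4, 31.2 and 42.5 CPM in control, 15.5, 73.1 and 19.97 CPM in PSCI and 35.2, 17.98 and 40.9 CPM in taVNS, so that 1 PSCI library was the highest of all 9 and the other 2 PSCI libraries were below every control. Its log2 difference was 0.12 ± 0.546 with all libraries and -0.91 without PSCI replicate 2, neither called (edgeR adjusted p = 0.923 and 0.134). Rab3c stood at 10.8, 20.8 and 16.3 CPM in control, 10.2, 13.2 and 9.59 CPM in PSCI and 11.1, 15.5 and 17.3 CPM in taVNS, with overlapping groups (log2 difference -0.54 ± 0.258, edgeR adjusted p = 0.233). Rph3a, rabphilin, which binds Rab3 and membranes, had the lowest fitted log2 difference of the 39 at -0.61 but a wide error (SE 0.308, edgeR adjusted p = 0.257). Its values of 271, 207 and 132 CPM in control, 169, 89.98 and 141 CPM in PSCI and 140.1, 186 and 109 CPM in taVNS overlapped, and control replicate 3 was below the highest 2 of the 3 PSCI values.

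RIM proteins organise the active zone and tether calcium channels near the docked vesicles. Rims2 (gene 116839) stood at 106, 127 and 135 CPM in control, 96.5, 87.2 and 81.3 CPM in PSCI and 107, 107 and 118 CPM in taVNS. Every PSCI value was below the other 6. It fell from 123 ± 14.9 to 88.3 ± 7.69 CPM (SD, n = 3 each; log2 difference -0.47 ± 0.109, edgeR's quasi-likelihood test, adjusted p = 0.02703). Rims1, its larger partner in level, stood at 227, 261 and 237 CPM in control, 182, 133 and 189 CPM in PSCI and 197, 265 and 205 CPM in taVNS. Control and PSCI did not overlap, the log2 difference was -0.53 ± 0.1596, and the gene was not called (edgeR adjusted p = 0.0712). The scaffolds Bsn and Pclo and the Munc13 priming factors Unc13a and Unc13b had overlapping groups and log2 differences between -0.15 and 0.14. Unc13a showed how wide the PSCI spread could be, at 229.8, 107 and 157 CPM in the 3 PSCI libraries against 158, 202 and 156 CPM in control.

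Synaptotagmins are the calcium sensors of the group. Syt4 (gene 64440), a poor calcium sensor known from dense-core vesicles, stood at 231, 248 and 268 CPM in control, 189, 190.4 and 147 CPM in PSCI and 239, 221 and 202 CPM in taVNS. The PSCI values, with replicate 3 the lowest, were all below the control and taVNS values. Syt4 fell from 249 ± 18.6 to 175 ± 24.8 CPM (SD, n = 3 each), a log2 difference of -0.51 ± 0.123 (edgeR's quasi-likelihood test, adjusted p = 0.0339). Syt1, the sensor of fast release in forebrain neurons, stood at 1461, 1584 and 1672 CPM in control, 1428, 1117 and 1306 CPM in PSCI and 1504, 1812 and 1598 CPM in taVNS. In CPM the values separated PSCI from both other groups, but Syt1 was not called (log2 difference -0.29 ± 0.128, edgeR adjusted p = 0.191). In the deposited RPKM values (reads scaled to transcript length and library total) PSCI replicate 1, at 355, was above control replicate 1, at 342. Syt2, Syt7, Syt11 and Doc2a overlapped between the groups, with log2 differences from -0.34 (Syt2) to 0.40 (Doc2a). Syt7, a slow sensor, stood at 632, 247 and 448 CPM in PSCI, so that PSCI held both the highest and the lowest value of the 9 libraries.

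Among the SNAREs and the proteins that take them apart, 6 of 6 genes had fitted differences below 0 (median -0.31), and none was called. Relative to neuron markers 4 of 6 were below 0 and the median was -0.03. All 6 had every PSCI library below every control library in CPM, which was so for 11.3% of all genes tested. In RPKM Stx1a and Napb overlapped. Stx1a stood at 53.9 RPKM in PSCI replicate 2 and 50.8 in control replicate 2. Napb stood at 234 RPKM in PSCI replicate 2 and 225 in control replicate 1. Snap25, the plasma-membrane SNARE and the vesicle gene with the highest level, stood at 1929, 1643 and 2139.8 CPM in control, 1412, 1108 and 1526 CPM in PSCI and 1722, 1759 and 1633 CPM in taVNS. PSCI lay below the other groups without overlap, with a log2 difference of -0.50 ± 0.148 against control (edgeR adjusted p = 0.0657). Vamp2, the vesicle SNARE synaptobrevin 2, stood at 719, 655 and 712 CPM in control, 591, 504 and 574 CPM in PSCI and 640.0, 583 and 579 CPM in taVNS. Its PSCI values were below all control values and partly within the taVNS range (log2 difference to control -0.32 ± 0.1001, edgeR adjusted p = 0.0774). Stx1a, the syntaxin partner of Snap25, stood at 111, 95.6 and 123 CPM in control and 57.7, 94.6 and 82.8 CPM in PSCI, where PSCI replicate 2 came within 1 CPM of the lowest control (-0.49 ± 0.186 on the log2 scale, edgeR adjusted p = 0.1405). Vamp1, Nsf (the ATPase that separates used SNAREs) and Napb (its adaptor beta-SNAP) differed by -0.30, -0.20 and -0.26 on the log2 scale.

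The 9 vesicle membrane proteins and synapsins had a median log2 difference of -0.08, with none called. Relative to neuron markers the median was 0.20, against 0.30 over all genes tested. Syp, synaptophysin, the usual protein marker of presynaptic terminals, stood at 1579, 1413 and 1723 CPM in control, 1320.4, 1272 and 1523 CPM in PSCI and 1565, 1443 and 1443 CPM in taVNS. Control and PSCI overlapped, and the 95% interval of the log2 difference ran from -0.46 to 0.07 around -0.20 (edgeR adjusted p = 0.346). Syn1, synapsin I, which ties vesicles to actin in the reserve pool, stood at 536, 508 and 547 CPM in control, 487, 429 and 587 CPM in PSCI and 533, 568 and 487 CPM in taVNS. PSCI held both the lowest and the highest value, with a log2 difference of -0.08 (95% interval -0.37 to 0.20, edgeR adjusted p = 0.743). These intervals still include decreases as large as that of Nsf. Syn2 stood at 365, 425 and 442 CPM in control and 283, 357 and 337 CPM in PSCI without overlap (-0.33 ± 0.1300, edgeR adjusted p = 0.146). In RPKM these groups overlapped, with PSCI replicate 2 at 183 and control replicate 1 at 177. Syn3, at 38.7, 42.3 and 41.9 CPM in control and 45.5, 46.7 and 43.4 CPM in PSCI, was the only one of the 39 with all PSCI values above all control values (log2 difference 0.14, edgeR adjusted p = 0.404); this was so for 16.2% of all genes tested. The transporter-like glycoproteins Sv2a, Sv2b and Sv2c and the synaptogyrins Syngr1 and Syngr3 ranged from -0.30 (Syngr1) to 0.23 (Sv2c).

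The 5 genes of endocytosis, uncoating and vesicle chaperoning all had fitted differences below 0 in PSCI (median -0.22), with none called. Relative to neuron markers 1 of 5 was below 0 and the median was 0.09, against 0.30 over all genes tested. Sh3gl2, endophilin A1, which bends membrane and recruits synaptojanin, stood at 183, 189 and 203 CPM in control, 143, 141 and 171 CPM in PSCI and 182, 215 and 197 CPM in taVNS. The PSCI libraries lay below both other groups (-0.34 ± 0.106 against control, edgeR adjusted p = 0.0784). Dnajc5, the cysteine string protein that keeps Snap25 folded, varied little within groups, at 444, 452 and 449 CPM in control, 390.3, 376 and 404 CPM in PSCI and 434, 477 and 429 CPM in taVNS. PSCI was again below both other groups without overlap, by -0.20 ± 0.0842 on the log2 scale against control (edgeR adjusted p = 0.174). Dnm1, the dynamin that cuts vesicles from the membrane, stood at 1335, 1309.6 and 1352 CPM in control and 1182, 920.2 and 1199.8 CPM in PSCI, and its PSCI values were all lower. Amph (amphiphysin, which brings dynamin to the neck) and Synj1 (synaptojanin, which helps shed the coat) overlapped between control and PSCI, with log2 differences of -0.22 and -0.16.

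**Figure D2:**
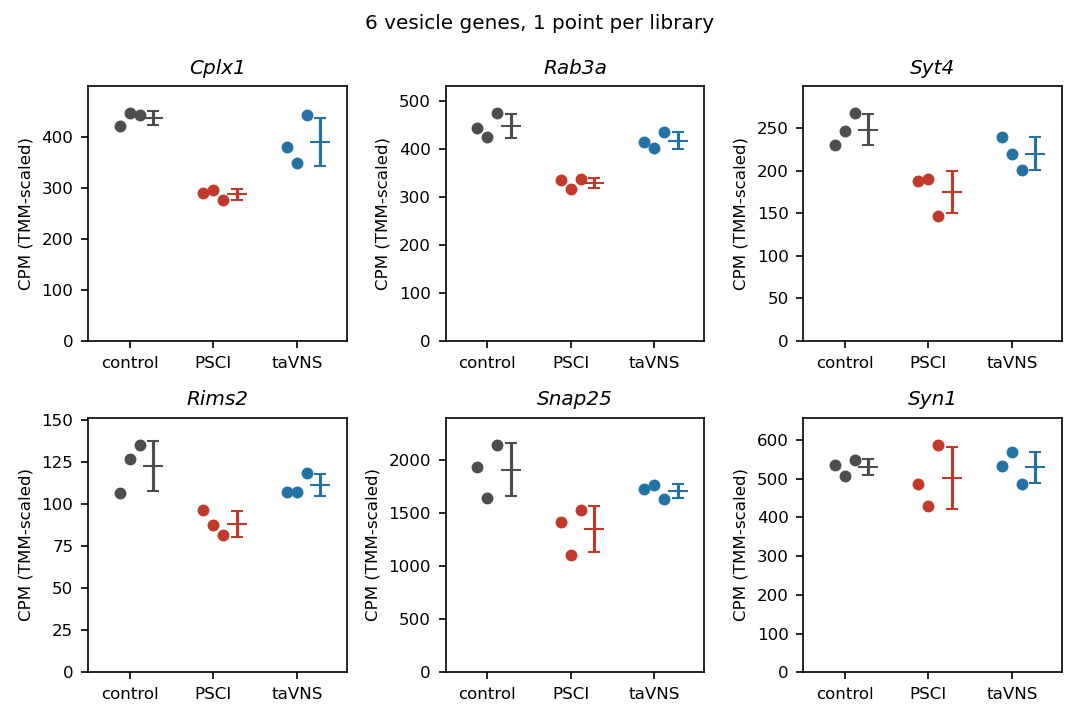
CPM of 6 vesicle genes by group, 1 point per library, with the mean (bar) and SD (whiskers), each panel starting at 0. Cplx1, Rab3a, Rims2 and Syt4, the genes called in PSCI against control, and Snap25 have all 3 PSCI points below the control and taVNS points, while the Syn1 groups overlap.

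The calls in PSCI against control depended on scale and on single libraries. Scaling the libraries on the 19 general neuron markers moved the median over all genes by 0.30 in this comparison and by -0.22 in taVNS against PSCI. On that scale none of the 39 was called lower and Syn3 (2.56%) was called higher, against 0.431% and 23.7% of all genes tested. The log2 differences of Cplx1 and Rab3a were then -0.31 and -0.15 (edgeR adjusted p = 0.0869 and 0.243). The neuron markers themselves had a median log2 difference of -0.34 in PSCI against control, with fitted values below 0 for 19 of 19 and Nefm and Ndrg4 called lower; without PSCI replicate 2 and taVNS replicate 3, Elavl4 was called lower in their place. Their summed level was 12564 to 13220 CPM in control, 9557 to 10969 in PSCI and 12059 to 12300 in taVNS, in the same order as the summed vesicle genes (18236 to 19214, 13836 to 16301 and 17355 to 19467 CPM). Their part in the result was not tested. Without PSCI replicate 2 and taVNS replicate 3 together, 3 of the 39 (7.69%) were called, all lower. In that fit 7.92% of all genes were called in either direction and 2.23% lower. Cplx1 was called without any 1 of the 9 libraries, and Rab3a in all of these fits but that without control replicate 3 (edgeR adjusted p = 0.0725). Syt4 lost its call without control replicate 1, 2 or 3, PSCI replicate 3 or taVNS replicate 2 (edgeR adjusted p = 0.0554, 0.0892, 0.110, 0.0911 and 0.0554). Rims2 lost its call without control replicate 2 or 3 or PSCI replicate 2 or 3 (edgeR adjusted p = 0.0870, 0.105, 0.0541 and 0.0948). In number, 1 gene of the 39 was called without control replicate 3, where 553 of all 14840 genes were called. The number was 2 without control replicate 2 or PSCI replicate 3 (653 and 795 of all genes). It was 5 without PSCI replicate 1 (2182 of all genes), so the calls over all genes moved in the same direction.

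**Figure D3:**
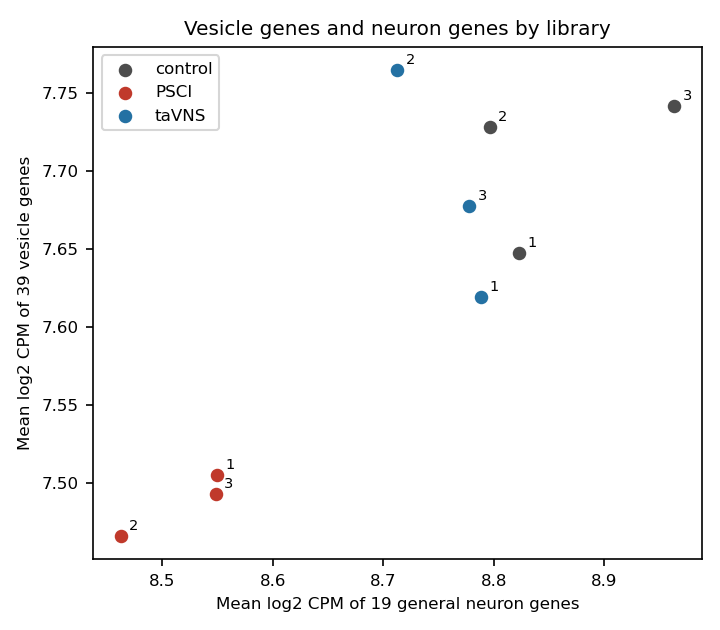
Mean log2 CPM of the 39 vesicle genes (vertical) against that of 19 general neuron markers (horizontal), 1 point per library. The PSCI libraries are lowest on both axes, at 7.47 to 7.51 for the vesicle genes and 8.46 to 8.55 for the neuron markers, against 7.62 to 7.76 and 8.71 to 8.96 in the other 6.

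Markers of other cell types moved in both directions in the same libraries. Of 12 microglia and macrophage markers, 10 rose in PSCI against control (9 without PSCI replicate 2 and taVNS replicate 3), and their summed level was 204 to 283 CPM in control, 568 to 910 in PSCI and 303 to 385 in taVNS. Of 10 astrocyte markers, Vim, Gfap and Aqp4 rose, with or without those 2 libraries, and none was called lower. Gfap alone went from a mean of 946 to 6107 CPM, while S100b and Aldoc, not called, had every PSCI value below every control value (S100b 966 to 1309 CPM in control and 378 to 892 CPM in PSCI; Aldoc 706 to 923 and 450.2 to 668 CPM). The summed level of the 10 was 4079 to 5696 CPM in control, 8844 to 12481 in PSCI and 4475 to 5389 in taVNS. Among interneuron markers, Kcnc2, Erbb4 and Lamp5 fell, Lamp5 not without those 2 libraries. Of 9 tested markers of hippocampal principal cells none was called, with a median log2 difference of -0.07. Their summed levels were 974 to 1256 CPM in control and 692 (PSCI replicate 2) to 1517 CPM in PSCI. No marker of oligodendrocytes (10), meninges (11) or neocortex (10) was called, 1 of 10 thalamic markers (Synpo2) rose and 1 of 9 striatal markers (Rasd2) fell. Without the same 2 libraries, Neurod2 of principal cells, Cldn11 of oligodendrocytes and Col1a1 and Col1a2 of meninges were called higher, Synpo2 was not called and Rasd2 was. Among the marker genes, Spink8, Tdo2 and Lct of principal cells, Foxc2 of meninges, Six3 of striatum and Tac1 and Gbx2 of thalamus were at 0 counts in 2 to 8 libraries and were not tested. What each cell type contributes to the values of the vesicle genes was not tested.

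The rest of the vesicle cycle was read from 5 further lists, 92 tested genes in all, of which 3 rose (3.26%) and 4 fell (4.35%) in PSCI against control, where 7.71% and 2.14% of all genes tested did. Their median log2 difference was -0.15, and 0.14 relative to neuron markers, on which scale 11 were called higher and none lower. Without PSCI replicate 2 and taVNS replicate 3, 3 of the 92 again rose and 4 fell, against 5.69% and 2.23% of all genes tested. Sncb, Atp6v1g2 and Picalm were not among them. Sncb, beta-synuclein, fell from 330 ± 25.8 to 227 ± 13.4 CPM (SD, n = 3 each; edgeR adjusted p = 0.0174). Atp6v1g2, a neuronal subunit of the proton pump that energises transmitter loading, fell by 0.44 on the log2 scale (edgeR adjusted p = 0.0411). Rims4, a short RIM, fell by 0.50 and Syt16 by 0.46 on that scale (edgeR adjusted p = 0.02004 and 0.0421). The 3 that rose were Dnm2, the dynamin found in most cell types (log2 difference 0.42, edgeR adjusted p = 0.0123), Picalm, a clathrin assembly protein (0.44, edgeR adjusted p = 0.0208), and Rab3il1, an exchange factor for Rab3 and Rab8 (1.69, edgeR adjusted p = 0.00950). The neuronal Dnm1, not called, lay on the other side of 0 from Dnm2. Of 30 postsynaptic receptors and scaffolds none was called, with 26 fitted differences below 0 (50% of all genes tested) and a median of -0.22; relative to neuron markers 8 were below 0 and the median was 0.07. Without PSCI replicate 2 and taVNS replicate 3, Gria4 and Dlg1 of these 30 were called lower, 18 were below 0 and the median was -0.05.

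**Figure D4:**
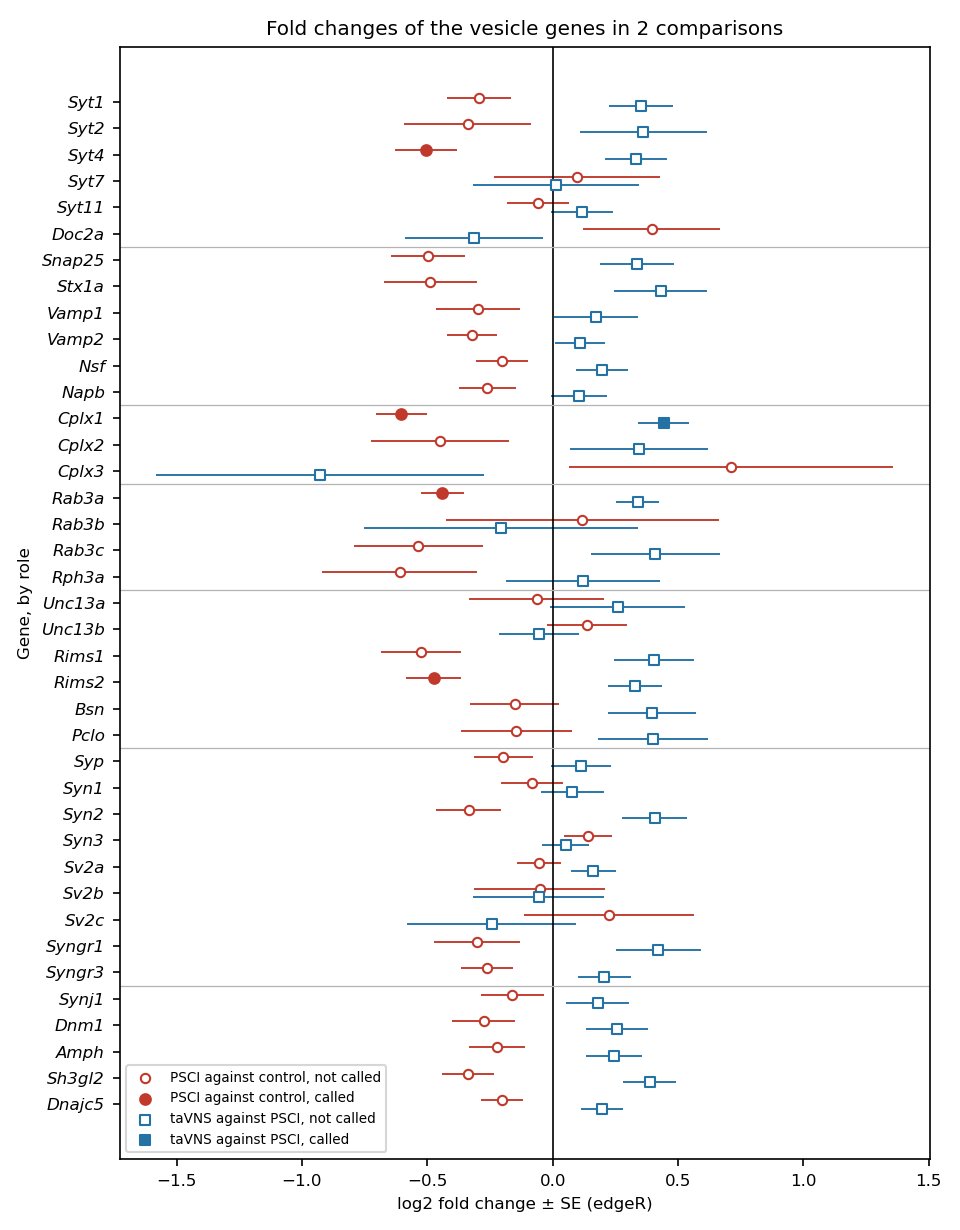
Log2 difference of each of the 39 vesicle genes with its SE, for PSCI against control (circles) and taVNS against PSCI (squares); filled symbols were called. Most circles lie left of 0 and most squares right of it, and the PSCI libraries enter both.

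In taVNS against PSCI, Cplx1 rose and no other vesicle gene was called in either direction. It rose from 287 ± 10.4 to 390.1 ± 47.04 CPM (SD, n = 3 each), which is 1.36-fold higher, a log2 difference of 0.44 ± 0.102 (95% interval 0.21 to 0.67; edgeR's quasi-likelihood test, adjusted p = 0.0396). That 1 gene is 2.56% of the 39, where 5.75% of all 14840 genes were called in either direction, 0.842% higher and 4.91% lower. Both comparisons use the same 3 PSCI libraries, so low PSCI values enter each of them with opposite sign, and they are not independent. Without PSCI replicate 2 and taVNS replicate 3 none of the 39 was called, Cplx1 included (edgeR adjusted p = 0.143). Of the 9 fits that each left out 1 library, the call of Cplx1 held only in that without PSCI replicate 1 (edgeR adjusted p = 0.0475, against 0.0548 to 0.134 in the other 8). In the same comparison none of the 19 general neuron markers was called (median log2 difference 0.19), and of the 12 microglia and macrophage markers 7 fell and 1 rose. Of the 10 astrocyte markers Vim, Gfap and Aqp4 fell, by 3.95, 2.55 and 0.61 on the log2 scale, and none was called higher. Fitted differences were above 0 for 4 of the 10, up to 0.79. Of the interneuron markers Kcnc2 rose by 0.60 and Npy fell by 1.81. Without PSCI replicate 2 and taVNS replicate 3, 4 microglia markers, Vim and Gfap were called lower and no marker of neurons or interneurons was called. The part of these cell types in the values of the vesicle genes was not tested.

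Fitted differences in taVNS against PSCI were above 0 for 33 of the 39 genes (49.7% of all genes tested) and below 0 for 6 (50.3%). Their median was 0.21 and their range -0.93 to 0.44. Relative to neuron markers 19 of the 39 were above 0 and the median was -0.02. On that scale 2825 of all 14840 genes were above 0 and their median was -0.22. For 18 of the 39 (46.2%) all taVNS libraries were above all PSCI libraries in CPM, which was so for 10.6% of all genes tested. For none were they all below (15.2%). At an unadjusted p under 0.05, 12 of the 39 (30.8%) passed, all higher in taVNS, against 21.1% of all genes in either direction and 7% higher. Without PSCI replicate 2 and taVNS replicate 3 the number was 7 of the 39, all higher. In that fit 2524 of all 14840 genes passed in either direction, 968 of them higher. Rab3a came next to Cplx1 by p-value, from 330.5 ± 10.7 CPM in PSCI to 418 ± 17.1 CPM in taVNS (0.34 ± 0.0856 on the log2 scale, edgeR adjusted p = 0.0526). Sh3gl2 differed by 0.39 ± 0.106 (edgeR adjusted p = 0.0679) and Syn2 by 0.41 ± 0.1300 (edgeR adjusted p = 0.1102). For Syn2 the taVNS values of 399, 407 and 489.9 CPM also reached above every control value in replicate 3. The other genes called in PSCI against control, Rims2 and Syt4, differed by 0.33 and 0.33 between taVNS and PSCI (edgeR adjusted p = 0.124 and 0.162). The active zone genes had a median of 0.36 (0.14 relative to neuron markers), with Bsn at 442, 375 and 447 CPM in PSCI and 448, 643 and 571 CPM in taVNS (0.40 ± 0.176, edgeR adjusted p = 0.237). Bassoon, the product of Bsn, is a large scaffold of the presynaptic cytomatrix. Vamp2 differed by only 0.11 (95% interval -0.11 to 0.34), and Syp and Syn1 by 0.11 and 0.08; with neuron-marker scaling these 3 turned to -0.10, -0.10 and -0.13. Of the other 92 vesicle-cycle genes, Picalm and Dnm2 fell in taVNS against PSCI, by 0.51 and 0.32 on the log2 scale (edgeR adjusted p = 0.0168 and 0.0459), and none rose; without PSCI replicate 2 and taVNS replicate 3 none of the 92 was called.

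In taVNS against control, none of the 39 genes was called, nor any of the 14840 genes tested (0% by edgeR's quasi-likelihood test). At an unadjusted p under 0.05 there were 557 genes (3.75%), 1.58% lower and 2.17% higher in taVNS. None of the 39 had an unadjusted p under 0.05, and DESeq2 called 9 genes in all and none of the 39. The median log2 difference of the 39 was -0.02, with 23 below 0 (49.4% of all genes tested) and 16 above it (50.6%). Relative to neuron markers 16 of the 39 were below 0 and the median was 0.06. On that scale 4599 of all 14840 genes were below 0 and their median was 0.08. In CPM Vamp2 and Napb were the only ones with all taVNS values below all control values, as were 5.4% of all genes tested. None had them all above (5.74%). In RPKM both genes overlapped, with Vamp2 at 353 in taVNS replicate 1 and 350 in control replicate 2. Napb stood at 235 RPKM in taVNS replicate 3 and 225 RPKM in control replicate 1. For Vamp2 the log2 difference was -0.21 (95% interval -0.44 to 0.01). For Cplx1 it was -0.16 (95% interval -0.39 to 0.07), an interval that holds both 0 and the size of many of the differences described above, so a return to the control level was not shown.

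Levels can be set side by side between genes only per transcript length, and for that the deposited RPKM values (reads scaled to transcript length and to library total) were used. In the control hippocampus the order ran from Snap25 at 1022 ± 135 RPKM (SD, n = 3) through Syp at 740.5 ± 74.4 and Dnm1 at 434 ± 3.34 down to Sv2c at 1.37 ± 0.692 and Cplx3 at 0.573 ± 0.434 RPKM, a 1783-fold range. Snap25, Syp, Dnm1 and Cplx2 kept ranks 1 to 4 in all 3 groups by group mean. Of the 38 neighbouring pairs in the control order, 10 did not overlap in their 3 control values, among them Snap25 over Syp and Syp over Dnm1, and the other 28 could not be ordered by these libraries. Dnm1, Cplx2, Rab3a, Syt1 and Vamp2 followed one another at 434 ± 3.34, 429 ± 85.03, 399 ± 22.8, 377 ± 30.5 and 368 ± 16.05 RPKM with each neighbour overlapping the next. Cplx1 held rank 10 in control, 13 in PSCI and 12 in taVNS.

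**Figure D5:**
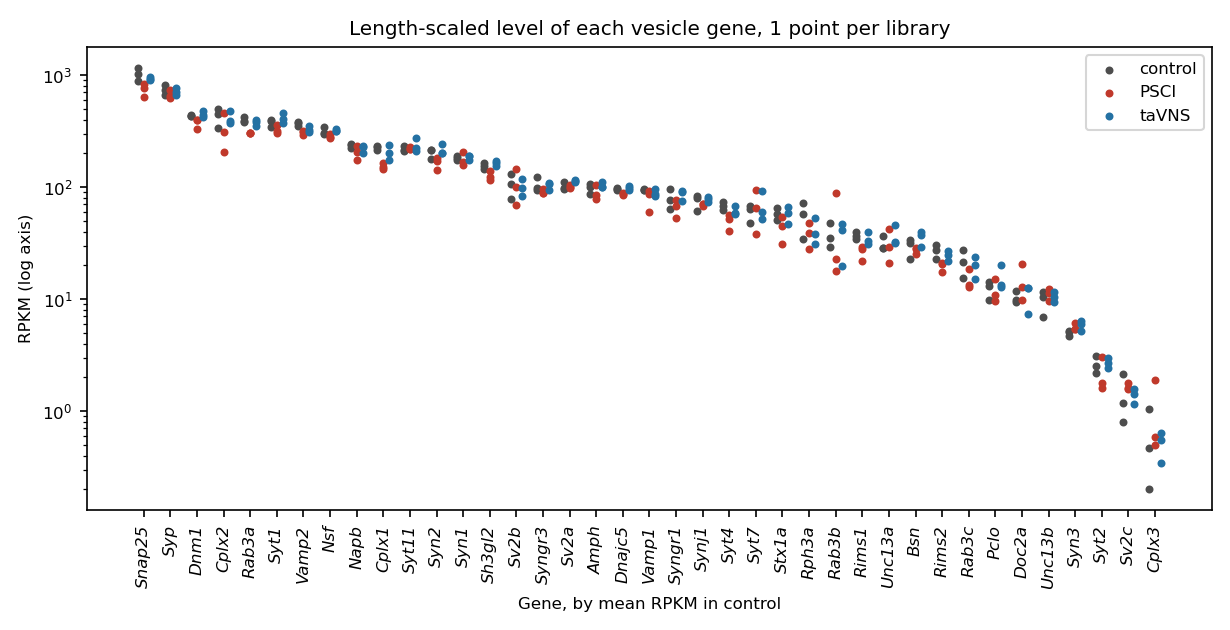
RPKM of the 39 vesicle genes on a log axis, ordered by the control mean, with 1 point per library coloured by group. Snap25 and Syp stand above the rest and Syn3, Syt2, Sv2c and Cplx3 below it, and most neighbours overlap.

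Within gene families, the shares of the summed RPKM show which form dominates. Rab3a made up 85.9% to 89.7% of the Rab3a, Rab3b and Rab3c total in the control libraries, and 74.0% in PSCI replicate 2, where Rab3b took 21.5% against 5.06% to 9.98% in the other 8 libraries. Cplx2 made up 59.2% to 69.9% of the complexins in control and Cplx1 nearly all the rest (29.96% to 40.7%). The Cplx1 share in PSCI ran from 24.9% to 44.0%, the highest in replicate 2 where Cplx2 was low, and overlapped with control. Syn3 took 1.23% to 1.32% of the synapsins in control and 1.42% to 1.76% in PSCI, without overlap. Syt4 took 8.87% to 9.99% of the 5 synaptotagmins in control and 6.31% to 9.08% in PSCI, with overlap through PSCI replicate 2. Syt1 took 50.2% to 54.2% in control and 48.4% to 49.1% in PSCI, without overlap.

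The median coefficient of variation of the CPM over the 39 genes was 12.1% in control, 12.2% in PSCI and 10.5% in taVNS, and the highest was that of Rab3b in PSCI at 88.5%. Of the genes called in PSCI against control, Rab3a and Cplx1 had PSCI SDs of 10.7 and 10.4 CPM on means of 330.5 and 287, and Syt4 had 24.8 on 175.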

How the data were processed

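Hippocampal poly(A) RNA of 9 rats (3 control, 3 PSCI, 3 taVNS) was sequenced from libraries that mark strand, per the labels' protocols; whether counting used strand is not given in the sources used here. The deposited tables hold, per the file headers, estimated counts per gene and RPKM. The submitters' processing notes name HISAT2 2.0.4, RSEM 1.2.8 and the build mRatBN7.2. The expected counts the authors deposited were rounded to whole numbers, and the RPKM values the authors deposited were used as given, only to compare levels between genes and in an alternative test.

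Genes were filtered with filterByExpr (14840 of 18733 kept) and scaled with TMM. They were fitted over all 9 libraries with edgeR 4.0.16 in R 4.3.3 (glmQLFit and glmQLFTest), with Benjamini-Hochberg adjustment over all genes. A prior count of 2 was used for the mean log2 CPM values and the replicate correlations. A gene was called at an adjusted p of under 0.05. The fit was tested on simulated counts with log2 differences larger than those of the vesicle genes called here, so that test does not bear on them. Every printed member difference was checked against RPKM: the log2 ratios differed by at most 0.0943. Separation of groups without overlap was read in CPM, and for some genes it did not hold in RPKM, as given above. Alternatives used DESeq2 1.42.0, limma 3.58.1 on log2(RPKM + 0.1) and log2(RPKM + 1), voom, other scalings, filters and sample sets. Totals of 13747389 to 15415694 counts set the precision. Intervals cover the spread between libraries.

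The members and the gene lists were chosen with earlier results of these data known. Every gene called in any comparison is named with its value per library, and so is each gene not called whose log2 difference was 0.5 or more in size in any comparison; Syp, Syn1, Snap25, Syt1, Vamp2 and at least 1 gene per role are named besides, and of the further lists the called genes with the smallest p, at most 3 per list. Sequences and gene starts are from RefSeq on GRCr8. The interneuron marker list is reported in part: 1 of its genes is not reported here.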

Additional observations from a re-analysis of the deposited data

How the results depend on the processing

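Over 20 alternatives, the call of Cplx1 in PSCI against control was lost only when libraries were scaled on neuron markers, that of Rab3a in 3, and those of Syt4 and Rims2 in 10 each; Cplx1 in taVNS against PSCI kept its call in 5. The number of vesicle genes called in PSCI against control (4) was 9 with DESeq2, which added Snap25, Vamp2, Rims1, Sh3gl2 and Dnajc5, all lower. That number was 1 with neuron-marker scaling (Syn3, higher) and 2 with limma on log2(RPKM + 0.1) or log2(RPKM + 1). It was 1 with only the 2 groups compared, and 1 to 5 when 1 library was left out. In taVNS against PSCI (1) the number was 6 with DESeq2, which added Syt1, Rab3a, Syn2, Sh3gl2 and Dnajc5, all higher. It was 2 with RLE size factors or the upper quartile, and 0 to 2 when 1 library was left out. It was 0 with neuron-marker scaling, either limma fit on RPKM, voom, only the 2 groups, or without PSCI replicate 2 and taVNS replicate 3. In taVNS against control it was 0 in every alternative. The median log2 difference in PSCI against control (-0.26) was 0.0427 with neuron-marker scaling, -0.20 with either limma fit, -0.21 without PSCI replicate 2 and taVNS replicate 3, and -0.29 to -0.19 when 1 library was left out. In taVNS against PSCI (0.21) it was -0.0157 with neuron-marker scaling and 0.16 to 0.25 when 1 library was left out, and in taVNS against control (-0.02) it was 0.0563 with that scaling and -0.06 to 0.03 when 1 library was left out. With neuron-marker scaling the sign turned for 16 of the 39 genes in PSCI against control and 14 in taVNS against PSCI, among them Syp (0.10) and Syn1 (0.20) in PSCI against control and Vamp2 (-0.10), Syp (-0.10) and Syn1 (-0.13) in taVNS against PSCI. Without PSCI replicate 2 it turned for 4 genes in PSCI against control, Cplx3 (-0.11), Syn1 (0.0170), Rab3b (-0.91) and Unc13a (0.17), and for 7 in taVNS against PSCI, among them Syn1 (-0.0223) and Rab3b (0.82). With 1 library left out, the Cplx3 difference ranged from -0.11 to 1.51 in PSCI against control and from -1.23 to -0.11 in taVNS against PSCI, and that of Syn1 from -0.21 to 0.0170 and from -0.0223 to 0.21 in these comparisons. Without taVNS replicate 3 as well it turned for 4 genes in each comparison, among them Cplx3 (-0.13) and Syn1 (0.0024) in PSCI against control and Cplx3 (0.13) in taVNS against PSCI. The causes were not tested.

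Whether the replicate numbers pair the samples is not given in the labels. The 9 same-number correlations of deviations ran from -0.47 to 0.26 and the 18 others from -0.39 to 0.46. Of the 9 libraries, 1 correlated best with its own number. With 3 libraries per group these values show no pairing but cannot exclude it. With the replicate block, 2 vesicle genes (Cplx1 and Rab3a) were called in PSCI against control and 0 in taVNS against PSCI. Over all genes tested, the calls in PSCI against control numbered 1461, against 2257 with DESeq2, 3585 with neuron-marker scaling, 798 with only the 2 groups, 1175 without PSCI replicate 2 and taVNS replicate 3 and 553 to 2182 when 1 library was left out; in taVNS against PSCI they numbered 854, against 1550, 1726, 249 and 175 to 1633, and 480 with voom, 518 with the block and 359 without PSCI replicate 2 and taVNS replicate 3. Depth limits Cplx3 and Sv2c, whose counts were under 100 in every library.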
